A study of Bos taurus with 81 samples.

Results

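The centromere-side ends of the cattle autosomes were examined here as the first 2 Mb of chromosomes 1 to 29. Each first 2 Mb was cut into 40 windows of 50 kb by position alone, so the 29 autosomes gave 40 windows each, which is 2.33% of 49746 complete autosomal windows. The other 48586 windows served as the comparison. The last 2 Mb of each autosome, 40 windows each from among these others, served as a further one. No window of the first 2 Mb was left out of the values below unless that is stated. In 28 of them (2.41%) no list held a peak, against 2.25% of the other windows and 0.948% of the windows of the last 2 Mb.

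Cattle autosomes are acrocentric, so the numbering of each one starts beside the centromere and ends at the far telomere. Centromeres and the satellite arrays around them are classical constitutive heterochromatin, where H3K9me3 recruits HP1 proteins and keeps repeats silent. H3K27me3 is laid down by Polycomb repressive complex 2 over silent developmental genes and can spread over broad domains in oocytes and early embryos. H3K4me3 marks active and poised promoters, H3K27ac marks active promoters and enhancers, and ATAC-seq reads open chromatin.

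Each mark was mapped with CUT&Tag (an antibody brings a transposase to the modified histone) in 9 groups of 2 libraries each. The groups were germinal vesicle oocytes taken before maturation in vitro (GV) and in vitro produced embryos with 2 cells (2C, 32 h after insemination), 4 cells (4C, 44 h) and 8 cells (8C, 56 h). The others were 8-cell embryos cultured with the transcription inhibitor α-amanitin at 50 µg/ml (8A, 56 h), morulae (MO, 122 h), whole blastocysts (BL, 172 h), and inner cell mass (ICM) and trophectoderm (TE) separated from blastocysts. Each of BL, ICM and TE also had 3 ATAC-seq libraries. ICM was freed by immunosurgery and TE was cut off with a micro scalpel. A library pooled about 500 oocytes or 1000 to 1500 blastomeres, and all groups without α-amanitin are called controls below. The labels do not say whether libraries of a group came from separate collections, so the spread between them may be technical. In pooled cells a larger share of marked cells and a broader mark per cell cannot be told apart. The identity of the groups could not be checked against marker genes, because no gene annotation of the build of the lists was used.

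The value given throughout is coverage, the percentage of bases under the peaks of 1 library. Coverage depends on how much was called in a list. Over the other windows it ran from 1.51% to 7.06% in the control H3K4me3 libraries and from 3.82% to 7.48% in those of H3K9me3. Each library was therefore read as a ratio of its own 2 parts, and its depth is unknown. The 2 libraries of a group shared between 0.366 (H3K27ac 4C) and 0.810 (H3K27me3 TE) of their joint peak length in the first 2 Mb. H3K27ac in 2C, at 0.369, was close to the lowest, so these 2 groups had the least repeatable peaks.

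H3K9me3 covered more of the first 2 Mb than of the other windows in every control library. The coverage in the first 2 Mb was 10.1% and 9.49% in GV, 8.37% and 8.35% in 2C, 9.69% and 10.3% in 4C, and 9.67% and 10.2% in 8C. It was 7.15% and 8.22% in MO, 7.38% and 8.73% in BL, 6.22% and 6.87% in ICM, and 12.5% and 12.1% in TE. The TE libraries were above every other control library, and the ICM libraries were below every other one. The other windows held 7.48% and 7.43% in GV, 3.82% and 5.08% in ICM, and 6.00% and 6.05% in TE. The mean log2 ratio of the first 2 Mb to the other windows was 0.66, a 1.58-fold difference, and it was above 0 in 16 of 16 libraries (exact sign-flip permutation test over libraries, two-sided, adjusted p = 7.63e-05 over 5 assays). These libraries share 1 genome, so this test says that the libraries lean one way, not that chromosome ends in general do. Without the outermost 0.25 Mb of each chromosome, a choice made after the values were seen, the H3K9me3 ratio was 0.39, above 0 in 15 of 16 libraries.

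H3K4me3, the promoter mark, also covered more of the first 2 Mb than of the other windows in every control library. Its coverage there was 6.22% and 7.64% in GV, 5.34% and 5.09% in 2C, 5.09% and 5.45% in 4C, and 3.88% and 6.11% in 8C. It was 2.12% and 2.34% in MO, 2.37% and 2.51% in BL, 1.87% and 1.91% in ICM, and 2.31% and 2.23% in TE. All libraries up to 8C lay above all from MO on, as they did elsewhere in the genome. The mean log2 ratio was 0.30 (1.23-fold), above 0 in 16 of 16 libraries (exact sign-flip permutation test, adjusted p = 7.63e-05). This direction rested on chromosomes 14 and 25. Without them the mean log2 ratio was -0.30, below 0 in 14 of 16 libraries. Both chromosomes were picked after their high coverage was seen, so a lower ratio without them was built in and no p-value is attached.

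H3K27me3 was higher in the first 2 Mb in 14 of 16 control libraries. Its coverage there was 11.8% and 12.3% in GV, 9.44% and 10.5% in 2C, 9.95% and 9.34% in 4C, and 8.86% and 8.83% in 8C. It was 7.27% and 6.72% in MO, 11.6% and 11.5% in BL, 8.94% and 9.23% in ICM, and 11.005% and 11.6% in TE. Both MO libraries were below all others, and the GV, BL and TE libraries were above those of the other groups. The mean log2 ratio was 0.37 (1.29-fold; exact sign-flip permutation test, adjusted p = 0.00187), and the 2 exceptions were both ICM libraries. Without chromosomes 14 and 25, picked after their values were seen, the ratio was 0.18, above 0 in 9 of 16 libraries.

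The 2 readouts of active chromatin were lower. H3K27ac coverage of the first 2 Mb was highest on average in GV (4.14% and 4.90%) and MO (4.29% and 3.66%, overlapping with ICM at 3.73% and 3.36%) and lowest in 4C (1.71% and 1.73%). The other windows held 5.11% and 5.72% in GV and 1.75% and 1.77% in 4C. With lists shortened by score to the length of the shortest one, this order turned. The means were then 1.49% in GV and 1.40% in MO, below 1.71% in 4C and 1.96% in 2C. The mean log2 ratio of H3K27ac in the full lists was -0.14, below 0 in 14 of 16 libraries (exact sign-flip permutation test, adjusted p = 0.00122). ATAC coverage was 2.64%, 3.58% and 4.27% in BL, 2.80%, 3.21% and 2.75% in ICM, and 3.03%, 3.52% and 2.89% in TE, with overlap among all 3 groups. Its log2 ratio was -0.22, below 0 in 9 of 9 libraries (exact sign-flip permutation test, adjusted p = 0.00391, the smallest that 9 libraries allow). Without chromosomes 14 and 25 the ratios were -0.47 for H3K27ac (below 0 in 16 of 16 libraries) and -0.74 for ATAC (9 of 9). Without the outermost 0.25 Mb, H3K27ac was at -0.14 with 8 of 16 libraries above 0, and ATAC at -0.10 with 9 of 9 below 0.

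**Figure D1:**
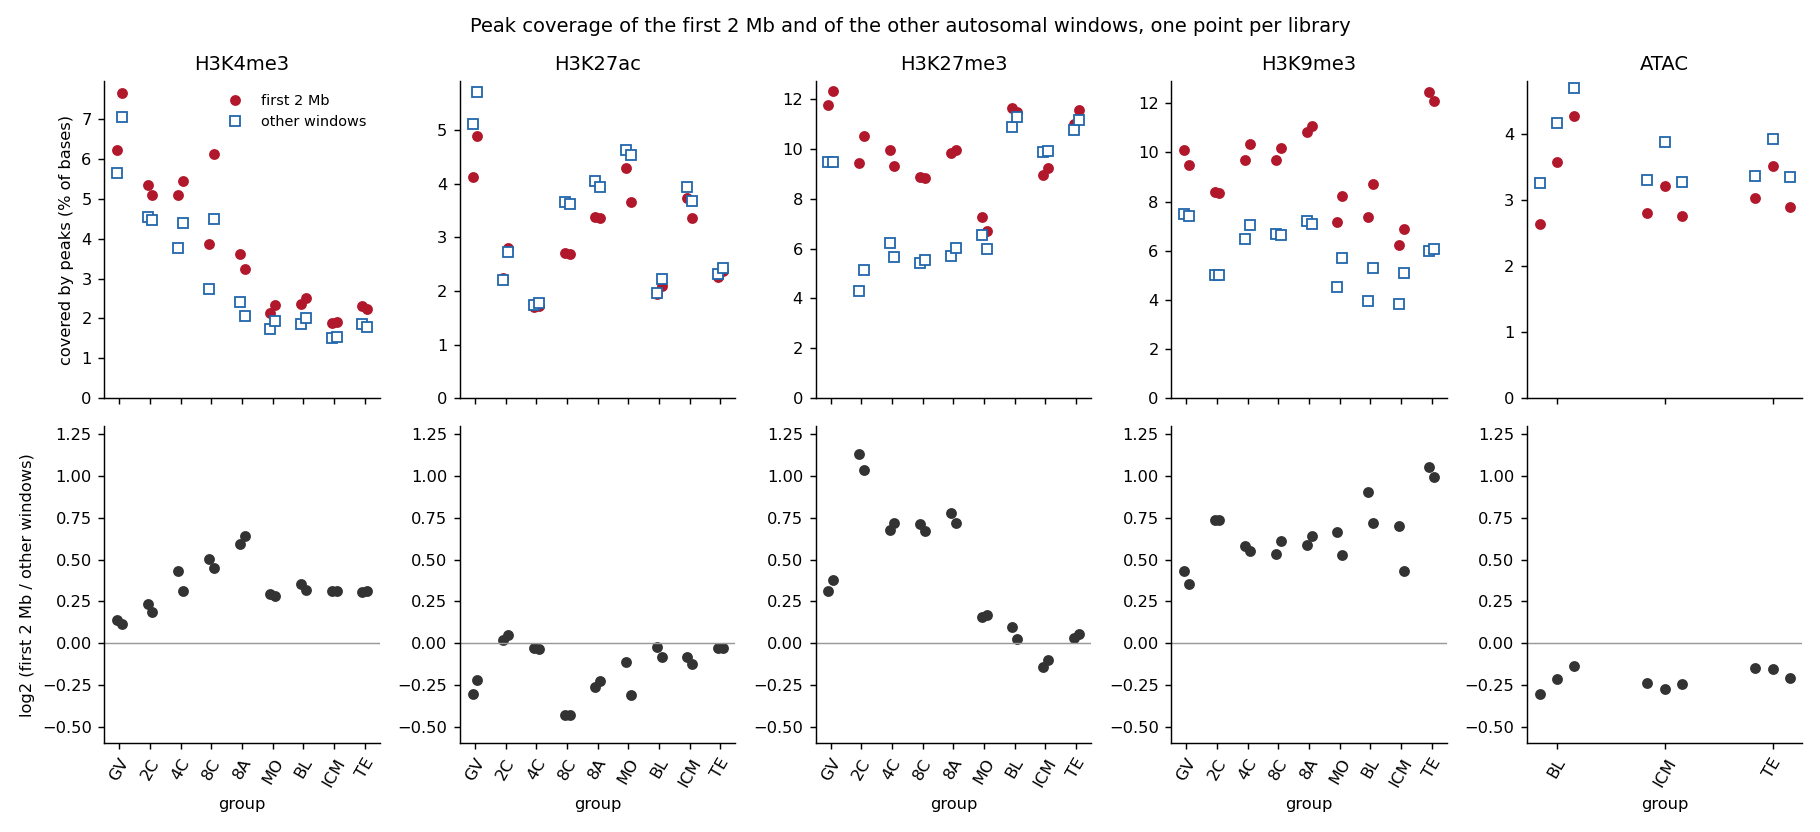
Coverage by peaks in percent of bases (upper row) in the first 2 Mb (filled circles) and in the other autosomal windows (open squares), and the log2 ratio of both (lower row), by assay and group; each point is 1 library. H3K9me3 and H3K4me3 ratios lie above 0 in all libraries, ATAC ratios lie below 0 in all 9, and the H3K27me3 ratio runs from above 1 in 2C to below 0 in ICM.

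The sum over 29 chromosomes hid that most of them went the other way for several marks. The first 2 Mb was above the rest of its own chromosome on 17 of 29 chromosomes for H3K9me3, 12 for H3K27me3, 12 for H3K4me3, 11 for H3K27ac and 6 for ATAC. Taken as the median over chromosomes, the log2 ratio was -0.38 for H3K4me3 (n = 16, exact sign-flip permutation test, adjusted p = 7.63e-05) with 0 of 16 libraries above 0, so its direction turned. For H3K27me3 it was -0.19, with 8 of 16 libraries above 0 (n = 16, exact sign-flip permutation test, adjusted p = 0.26). For H3K9me3 it was 0.15, above 0 in 13 of 16 libraries (n = 16, exact sign-flip permutation test, adjusted p = 0.0614). H3K27ac and ATAC remained below 0 with this measure.

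Every control library of every assay covered less of the first 2 Mb than of the last 2 Mb of the same autosomes. Coverage was lower 3.36-fold for H3K27me3, 3.16-fold for H3K9me3, 2.79-fold for H3K4me3 and 1.85-fold for H3K27ac (16 of 16 libraries each, exact sign-flip permutation test, adjusted p = 3.81e-05). For ATAC it was lower 2.35-fold (9 of 9 libraries, exact sign-flip permutation test, adjusted p = 0.00391). H3K27me3 in MO, for example, covered 6.996% ± 0.388 (SD, n = 2) of the first 2 Mb and 41.7% ± 1.8 of the last 2 Mb.

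The ratio of the first 2 Mb to the other windows differed between the 8 control groups for all 4 marks. The adjusted p was 1e-04 for H3K27me3, 0.00466 for H3K9me3, 0.0005 for H3K4me3 and 0.00348 for H3K27ac (permutation of group labels over 16 libraries, 100000 resamples). For ATAC, with BL, ICM and TE, p was 0.268 (exact permutation of 9 libraries). Leaving out chromosomes 14 and 25 moved ATAC past the threshold. Both were picked after their high coverage in these libraries was seen, so no p-value is attached and no group difference is read from it. For the marks, any single pair of groups holds 2 libraries against 2, where an exact test cannot go below 0.333, so steps between groups are given as values with a note on overlap.

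The H3K27me3 ratio had the widest range. Its log2 values were 0.31 and 0.38 in GV, 1.13 and 1.04 in 2C, 0.68 and 0.72 in 4C, and 0.71 and 0.67 in 8C. They were 0.15 and 0.17 in MO, 0.10 and 0.02 in BL, -0.15 and -0.10 in ICM, and 0.03 and 0.05 in TE. The ratio was thus highest in 2C, and both ICM libraries were below all others. Between GV and 2C the first 2 Mb was 1.21-fold lower while the other windows were 2.01-fold lower. Of the H3K27me3 length common to both GV libraries, 41.5% was still covered in both 2C libraries within the first 2 Mb, against 17.8% elsewhere. Between 8C and MO the first 2 Mb was 1.26-fold lower while the other windows were 1.14-fold higher.

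The H3K9me3 ratio was lowest on average in GV (log2 0.43 and 0.35) and highest in TE (1.05 and 1.00). The 2C libraries were at 0.74 and 0.74, the BL libraries at 0.90 and 0.72 and the ICM libraries at 0.70 and 0.43. ICM and TE did not overlap, whereas 1 ICM library lay within the GV values. Coverage of the first 2 Mb was 1.88-fold higher in TE than in ICM, and of the other windows 1.35-fold higher. The ICM lists were short, with 3.82% and 5.08% coverage of the other windows. With every H3K9me3 list shortened by score to the length of the shortest one, the first 2 Mb was at 5.89% ± 0.48 in ICM and 8.72% ± 0.26 in TE (SD, n = 2).

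H3K4me3 had its lowest ratio in GV (0.14 and 0.11) and its highest control ratio in 8C (0.51 and 0.45). The 8A libraries, from embryos cultured with α-amanitin, were higher still at 0.59 and 0.64, and 8A did not overlap with 8C. This order depended on the length of the lists. With lists shortened by score to the length of the shortest one, the mean H3K4me3 ratio was 0.52 in GV, 0.79 in 4C, 0.69 in 8C and 0.78 in 8A. GV then lay above MO, BL, ICM and TE (0.30 to 0.34), 4C was highest, and the 8A libraries (0.76 and 0.80) overlapped with those of 8C (0.61 and 0.77). In the full lists, from MO on the ratio stayed within 0.28 and 0.35. H3K27ac was lowest in 8C (-0.43 and -0.43), and 8A (-0.26 and -0.23) lay above it. The 2C libraries (0.02 and 0.05) were the only H3K27ac libraries above 0.

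Within the first 2 Mb the repressive marks covered more at 0 to 0.5 Mb than at 1.5 to 2 Mb. H3K9me3 coverage was 3.21-fold higher at 0 to 0.5 Mb than at 1.5 to 2 Mb, a log2 difference of 1.68 that was above 0 in 16 of 16 libraries (exact sign-flip permutation test, adjusted p = 7.63e-05). For H3K27me3 the fold was 2.09 (log2 1.07, 16 of 16 libraries, exact sign-flip permutation test, adjusted p = 7.63e-05). ATAC coverage was 1.70-fold lower at the outer end (9 of 9 libraries, exact sign-flip permutation test, adjusted p = 0.00651). H3K4me3 and H3K27ac did not pass the test, with log2 differences of -0.04 (adjusted p = 0.78) and -0.03 (adjusted p = 0.832; exact sign-flip permutation tests, n = 16). These means joined groups of opposite direction, with 7 of 16 H3K4me3 libraries and 6 of 16 H3K27ac libraries above 0. H3K4me3 was at 0.54 and 0.51 in 8C but at -0.37 and -0.43 in ICM. H3K27ac was at 0.67 and 0.61 in 4C but at -0.70 and -0.71 in ICM.

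The outermost 0.25 Mb, 5 windows per chromosome, had more H3K9me3 and less H3K4me3 from MO on than up to 8C. This stretch was chosen after its values were seen, so it is described without a test. H3K9me3 covered 9.02% and 8.63% of it in GV, 13.8% and 12.9% in 2C, 14.1% and 14.3% in 4C, and 18.05% and 19.2% in 8C. Coverage was 20.6% and 21.4% in MO, 23.9% and 24.0% in BL, 22.0% and 22.2% in ICM, and 29.2% and 27.2% in TE. GV was lowest and TE highest, and no library up to 8C reached one from MO on. The remainder of the first 2 Mb did not share this course: it held 9.94% ± 0.45 in GV, 8.67% ± 0.27 in 8C, 5.78% ± 1.08 in BL and 10.0% ± 0.12 in TE (SD, n = 2).

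H3K4me3 covered 7.06% and 8.92% of the outermost 0.25 Mb in GV, 6.60% and 6.17% in 2C, 7.23% and 7.42% in 4C, and 6.91% and 10.9% in 8C. It covered 1.57% and 1.66% in MO, 0.973% and 1.05% in BL, 0.771% and 0.766% in ICM, and 0.874% and 0.867% in TE. Relative to the other windows the stretch was 2.47-fold richer in H3K4me3 in 8C and 2.10-fold poorer in TE. H3K27ac was 2.21-fold richer there than elsewhere in 4C and 3.46-fold poorer in ICM. With α-amanitin, H3K4me3 in the stretch was lower than in 8C (5.79% ± 0.40 against 8.89% ± 2.80, SD, n = 2) and H3K27ac was higher (6.37% ± 0.19 against 4.94% ± 0.30), without overlap of libraries for either mark. The H3K4me3 difference depended on the length of the lists. Relative to the other windows the stretch was 2.59-fold richer in H3K4me3 in 8A. With shortened lists H3K4me3 was at 4.49% ± 0.07 in 8A and 4.40% ± 0.66 in 8C, and H3K27ac at 4.47% ± 0.07 and 2.83% ± 0.23. The H3K27me3 coverage of the stretch lay between 11.1% in ICM and 16.7% in 8C among control groups, and was 16.9% in 8A.

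**Figure D2:**
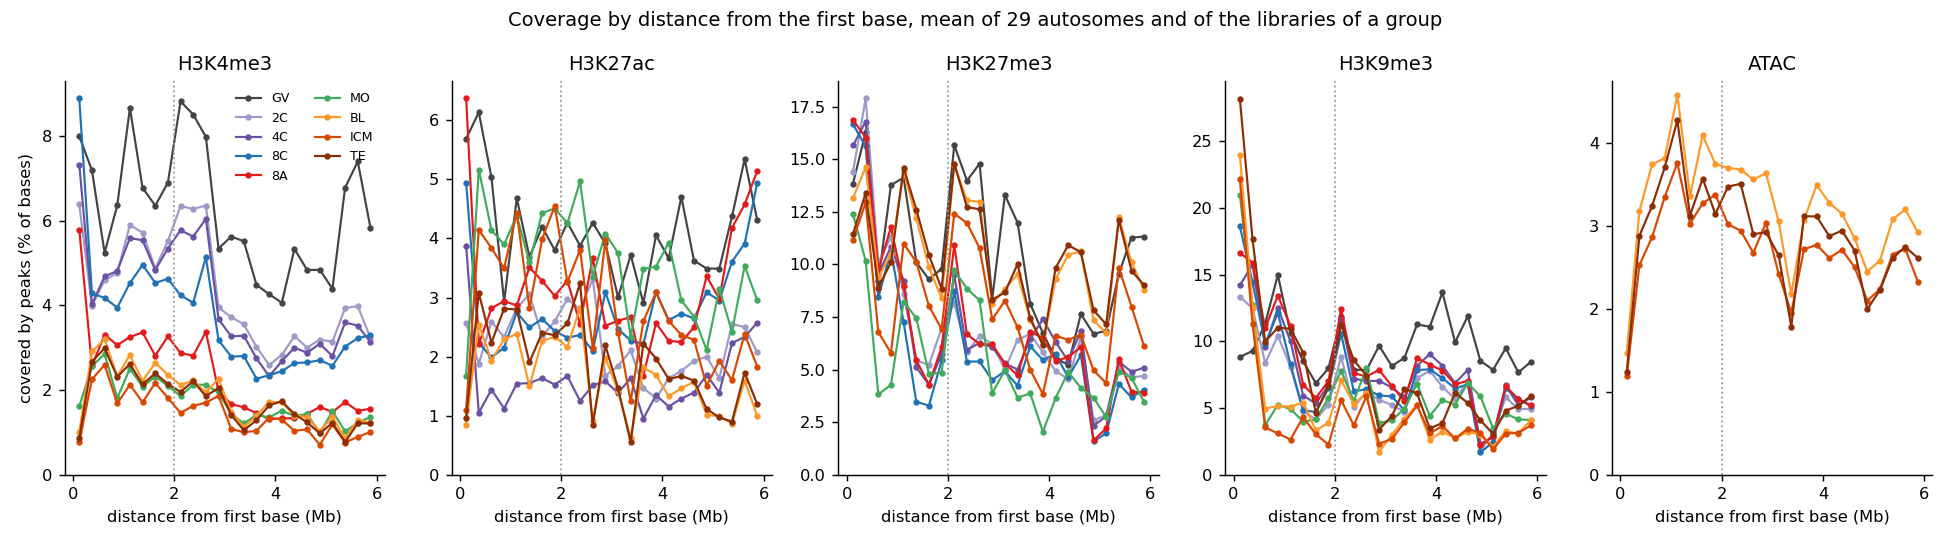
Coverage by peaks (percent of bases) against distance from the first base in Mb, in steps of 0.25 Mb up to 6 Mb, for each assay; a line is the mean of the libraries of a group over 29 autosomes, and the dotted line marks 2 Mb. At the left edge H3K9me3 runs from 8.83% in GV to 28.2% in TE, while H3K4me3 runs from 8.89% in 8C down to 0.769% in ICM.

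The outermost H3K9me3 was spread over many chromosomes. Both libraries had a peak in the outermost 0.25 Mb of 24 of 29 chromosomes in GV, 25 in 8C and 28 in TE. This was not particular to H3K9me3: the counts were 28, 27 and 17 for H3K4me3 and 26, 24 and 22 for H3K27me3. ATAC had 19 in TE. H3K9me3 coverage of at least 10% in both libraries was seen on 5 chromosomes in GV, 14 in 8C and 20 in TE, against 11, 15 and 11 for H3K27me3. No count for other stretches of this length is at hand. For H3K9me3 chromosome 2 had the most, with group means of 10.6% in GV, 47.1% in 2C, 58.5% in 8C, 68.4% in MO and 68.7% in TE. On the same stretch of chromosome 2, H3K4me3 covered 43.0% in GV, 40.8% in 8C and 0.17% in MO, and was listed at 0 in BL, ICM and TE. H3K27me3 on this stretch stayed between 52.9% and 62.04% in the control groups. On chromosome 15, H3K4me3 covered 22.2% in 8C and was listed at 0 in MO.

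In cleavage embryos H3K4me3 and H3K9me3 peaks overlapped in the outermost stretch. In 8C, 63.4% of the H3K4me3 length common to both libraries in the outermost 0.25 Mb lay under H3K9me3 common to both, against 18.4% from 0.25 to 2 Mb and 10.2% in the other windows. In the outermost stretch this share was 21.5% in GV, 53.7% in 8A and 17.7% in BL, where the H3K4me3 length was much shorter. Peaks from pooled cells overlap whether the marks sit in the same or in different cells or alleles, so this cannot be told apart here.

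Overlap of H3K9me3 with H3K27me3 also differed between groups. Of the H3K9me3 length common to both libraries in the first 2 Mb, 14.7% lay under H3K27me3 in GV, 68.0% in 2C, 78.3% in 4C, 76.4% in 8C and 80.04% in 8A. The share was 42.9% in MO, 62.5% in BL, 50.2% in ICM and 60.9% in TE. The other windows had 7.01% in GV, 68.5% in 8C and 75.2% in BL, so the first 2 Mb was above them in GV and below them in BL. Of the H3K9me3 length common to both 8C libraries, 41.6% was still covered in both MO libraries in the first 2 Mb, against 19.9% elsewhere. Of all positions covered in any of the 9 groups, those covered in every group made up 6.68% for H3K27me3 in the first 2 Mb and 1.69% elsewhere, and for H3K9me3 3.39% and 0.881%.

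Chromosomes 14 and 25 stood apart from the other autosomes most clearly for H3K4me3 and ATAC. They make up 6.90% of the windows but held 35.6% of the H3K4me3 length, 35.5% of the ATAC length, 25.7% of H3K27ac, 18.5% of H3K27me3 and 18.6% of H3K9me3 (means over control groups). Together they held the top 2 places for H3K4me3 in 16 of 16 libraries and for ATAC in 9 of 9. For the repressive marks they did not stand alone. Chromosome 14 was in the top 2 in 8 of 16 H3K27me3 and 6 of 16 H3K9me3 libraries, and chromosome 25 in 6 and 8. Chromosomes 24 (27.2%) and 27 (25.7%) had H3K27me3 means close to those of 14 (26.9%) and 25 (26.4%). In the gene table of the ARS-UCD2.0 assembly, which is not the build of the lists, chromosome 25 starts with IL9R, POLR3K, SNRNP25, RHBDF1, MPG and NPRL3. These are followed by the α-globin cluster (HBZ, HBM, HBA, HBA1, HBQ1), which encodes oxygen-carrying subunits of haemoglobin. Chromosome 14 starts there with an olfactory receptor gene, OR10AG83, then zinc-finger genes (ZNF250, ZNF16, ZNF34, ZNF7) and RPL8, a ribosomal protein gene. No window was assigned to a gene.

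On chromosome 25, H3K9me3 covered 41.5% and 41.1% of the first 2 Mb in GV, 40.4% and 38.8% in 2C, 46.9% and 47.4% in 4C, and 46.4% and 46.2% in 8C. With α-amanitin it covered 53.3% and 58.4%. From MO on it was low, at 3.39% and 5.21% in MO, 2.67% and 4.05% in BL, 0.99% and 2.16% in ICM, and 5.32% and 5.88% in TE. H3K27me3 on chromosome 25 was 39.5% and 39.4% in 8C and 16.1% and 14.6% in MO. H3K4me3 there was 18.1% and 27.9% in 8C and 13.8% and 14.4% in MO.

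On chromosome 14 H3K9me3 was 29.5% and 29.8% in GV, 39.7% and 38.5% in 8C, 46.0% and 46.6% in 8A, and 13.97% and 18.7% in MO. It was 5.63% and 6.68% in ICM against 22.5% and 21.9% in TE. The 8A libraries were above the 8C libraries on both chromosomes, for H3K9me3 and for H3K27me3 (42.4% and 42.2% against 36.8% and 37.3% on chromosome 14).

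Without chromosomes 14 and 25, the mean coverage over control groups was 7.94% for H3K9me3, 8.69% for H3K27me3, 2.70% for H3K4me3, 2.33% for H3K27ac and 2.21% for ATAC. With them it was 9.08%, 9.93%, 3.90%, 2.91% and 3.19% in the same order.

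Chromosome 24 ranked first for H3K27me3 and chromosome 27 for H3K9me3. On chromosome 24, H3K27me3 covered 33.9% and 34.8% in GV, 10.2% and 11.2% in 2C, and 8.83% and 9.97% in 8C. It covered 31.3% and 30.8% in MO and 39.8% and 41.5% in BL, so the cleavage groups lay far below both GV and the later groups. H3K4me3 on chromosome 24 was 20.6% and 24.4% in GV and 2.21% and 2.48% in MO. The ARS-UCD2.0 table starts chromosome 24 with the olfactory receptor genes OR9M1 and OR9M1D, followed by PARD6G, a cell polarity gene, and ADNP2.

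Chromosome 27 led for H3K9me3, with a mean over control groups of 25.8% against 4.39% on the rest of the chromosome, and it was above its rest in 16 of 16 libraries. H3K9me3 there was 27.4% and 28.1% in GV, 19.0% and 20.0% in ICM and 36.3% and 35.6% in TE. Its first genes in the ARS-UCD2.0 table are ERICH1, DLGAP2, a postsynaptic scaffold gene, and CLN8, an endoplasmic reticulum membrane protein gene.

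Chromosomes 3, 6, 17 and 19 were among the lowest. For H3K9me3 the first 2 Mb of chromosome 6 had 0.449%, chromosome 3 0.906% and chromosome 17 2.51%. For H3K27me3 chromosome 17 had 1.45%, chromosome 3 1.63% and chromosome 6 2.30%. For ATAC chromosome 19 was lowest at 0.208%, against 6.98% on the rest of that chromosome, followed by chromosomes 4 (0.433%) and 6 (0.454%). Chromosome 19 was also lowest for H3K27ac (0.297%) and next to last for H3K4me3 (0.335%), where chromosome 6 had 0.228%. Below chromosomes 25 and 14, the next highest was chromosome 16 for H3K27ac (5.17%) and chromosome 8 for ATAC (5.70%).

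Over 29 chromosomes, Spearman's rho was 0.89 between H3K9me3 and H3K27me3 and 0.94 between H3K27ac and ATAC, but 0.45 between H3K9me3 and ATAC. H3K4me3 ranked with both, at 0.75 with H3K9me3 and 0.79 with ATAC. Each value compares means of the same 29 chromosomes and control groups, and no test is attached.

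**Figure D3:**
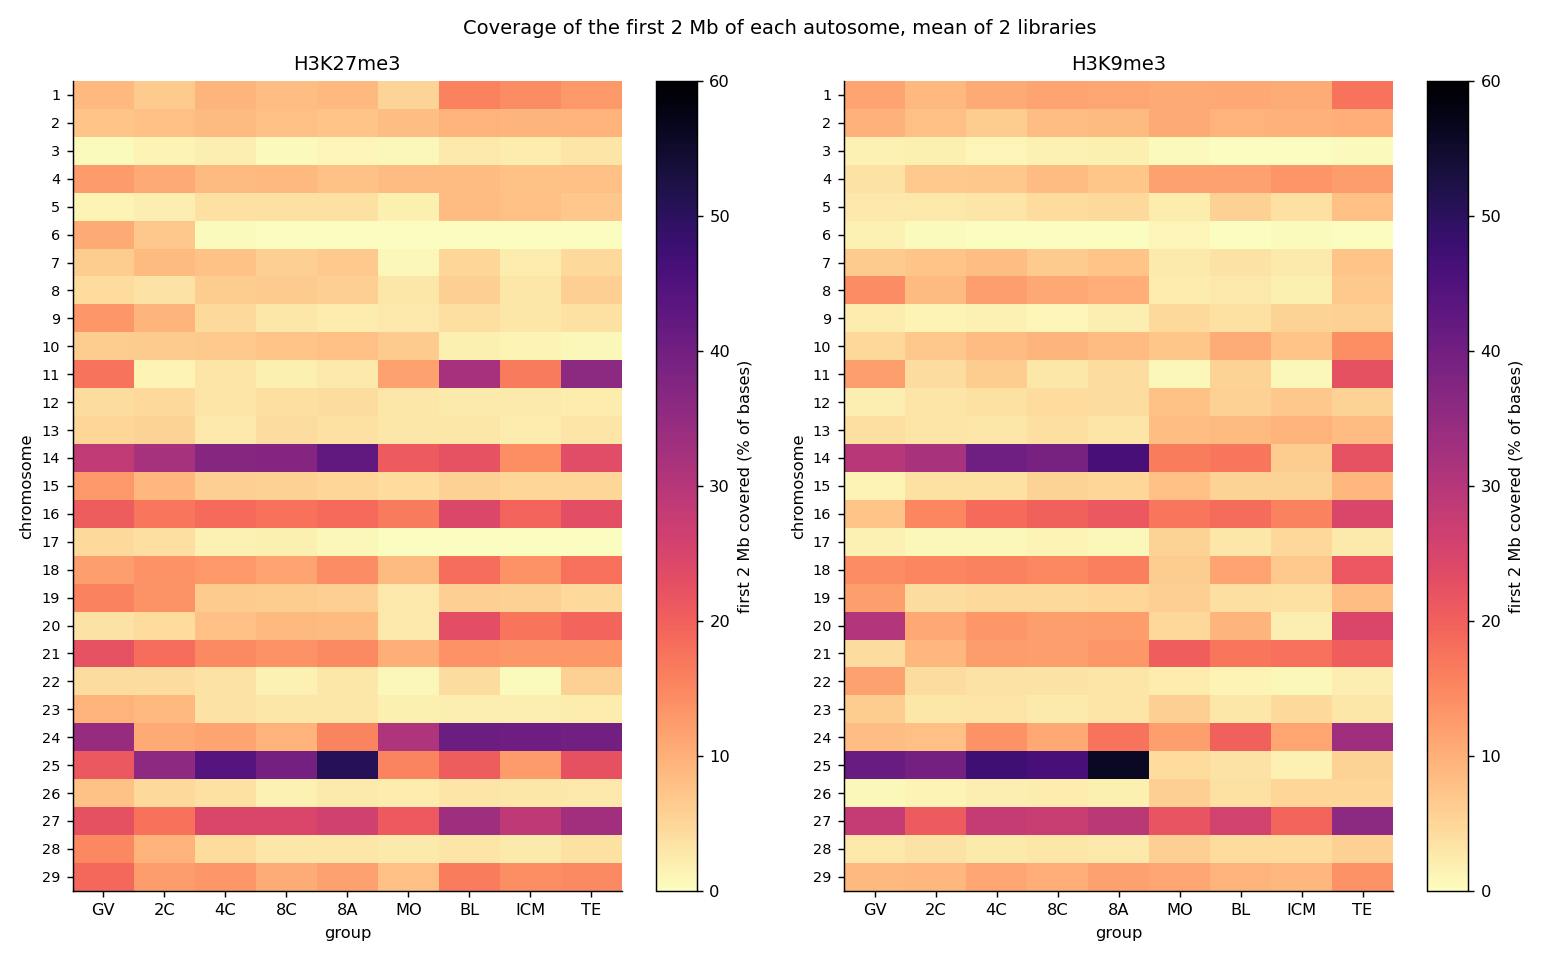
Coverage of the first 2 Mb (percent of bases, colour) of each autosome (rows) in each group (columns) for H3K27me3 and H3K9me3, as the mean of 2 libraries. For H3K9me3, chromosome 25 is dark up to 8A (55.9%) and pale from MO on (4.30%), chromosome 14 goes from 46.3% in 8A to 16.4% in MO, chromosome 24 darkens for H3K27me3 from MO on, and chromosome 27 is dark in all groups.

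The difference between ICM and TE in H3K9me3 was seen on most chromosomes. Both TE libraries were above both ICM libraries on 21 of 29 chromosomes and below them on 4. The rest of each chromosome was not counted in this way, and the other windows together were also higher in TE, 1.35-fold and without overlap. The largest gap was on chromosome 20, with 1.24% and 2.61% in ICM against 26.4% and 22.9% in TE. GV had 30.5% and 30.4% on the same stretch. Chromosome 11 had 0.90% and 0.96% in ICM against 21.9% and 23.1% in TE, and chromosome 24 had 10.6% and 11.7% against 32.7% and 33.4%. On chromosome 11, H3K27me3 was also higher in TE (35.2% and 36.8%) than in ICM (17.0% and 16.1%), after 1.36% and 2.02% in 8C.

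**Figure D4:**
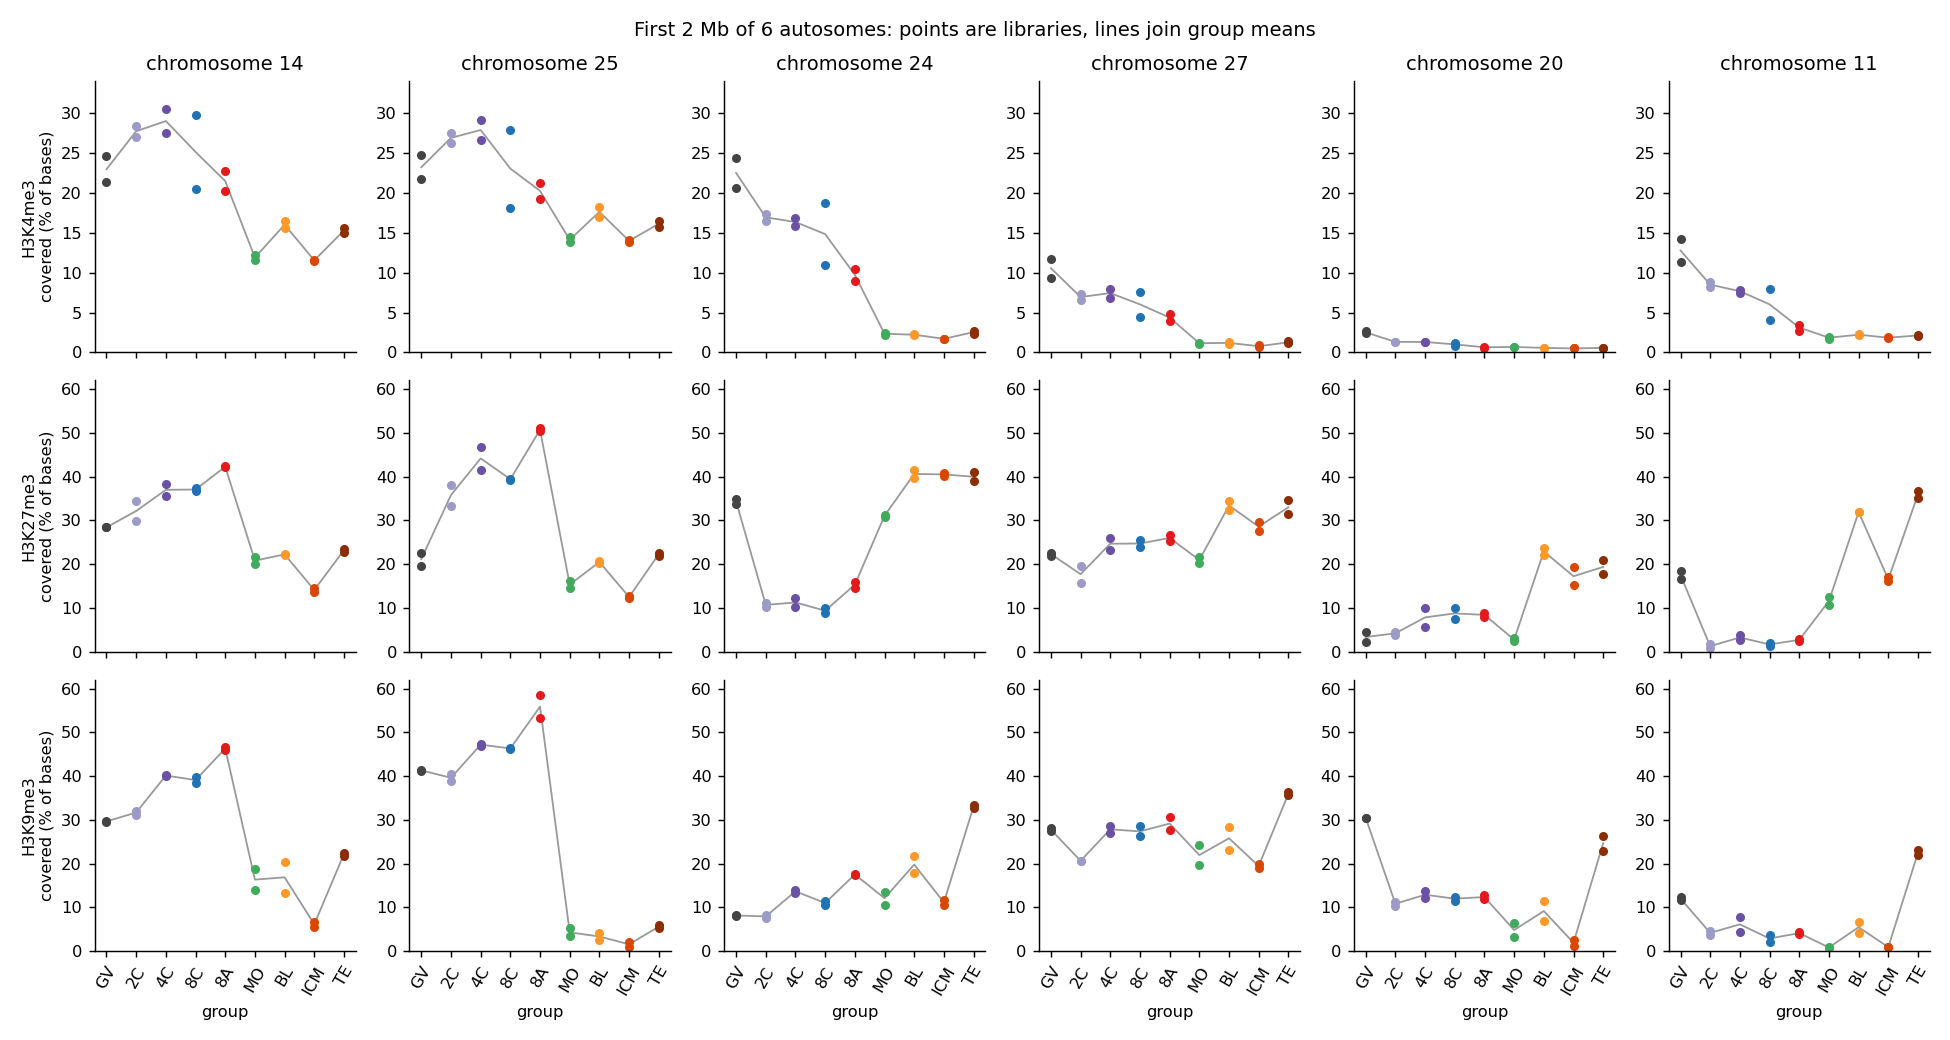
Coverage (percent of bases) of the first 2 Mb of 6 autosomes for H3K4me3, H3K27me3 and H3K9me3 by group; points are libraries and lines join group means. H3K9me3 on chromosome 25 is at 46.3% in 8C and 4.30% in MO, and on chromosomes 20 and 11 TE lies far above ICM.

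Single windows were compared between groups for H3K27me3 and H3K9me3. A window was counted when the libraries of the 2 groups did not overlap and their means differed by at least 10 percentage points. With 2 libraries against 2 this is a count and not a test, so it was read against the share of the other windows that met the same rule.

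For H3K9me3, 205 windows of the first 2 Mb (17.7%) were higher in TE than in ICM, against 8.4% of the other windows, and 27 (2.33%) were higher in ICM, against 4.74%. They were found on 25 chromosomes, 63 of them in the outermost 0.5 Mb and 21 on chromosomes 14 and 25. The windows with the largest differences were chr14:1950001-2000000, at 0 in both ICM libraries and 88.0% and 86.8% in TE, and chr14:1850001-1900000, at 0 and 4.00% against 84.8% and 93.6%. The largest in the other direction was chr23:1300001-1350000, at 52.8% and 62.4% in ICM and 0 in TE.

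Between GV and 2C, 83 windows (7.16%) were higher in 2C for H3K9me3, against 2.91% elsewhere, and 51 of the 83 lay in the outermost 0.5 Mb. Another 142 (12.2%) were higher in GV, against 10.8%. With shortened lists 87 windows were higher in 2C and 35 in GV, with no share of the other windows at hand to read them against. The largest differences toward 2C were at chr16:250001-300000 (0 in GV, 97.6% in both 2C libraries) and chr16:300001-350000 (0 in GV, 84.0% and 89.2% in 2C). The largest toward GV was at chr20:1750001-1800000, with 85.2% and 66.0% in GV and 0 in 2C.

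Between 8C and MO, 155 windows (13.4%) were higher in 8C for H3K9me3, against 11.6%, and 56 of the 155 were on chromosomes 14 and 25. The 130 windows higher in MO (11.2%) were near the background of 11.7%, and 3 of them were on these chromosomes. Examples are chr24:800001-850000 and chr25:1600001-1650000, each fully covered in both 8C libraries and without a peak in MO. Between MO and BL, 83 windows were higher in BL (7.16%, against 5.69%) and 78 higher in MO (6.72%, against 9.02%). The window chr27:1350001-1400000 had 2.40% and 8.00% in MO and 90.8% and 97.2% in BL.

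For H3K27me3, 121 windows (10.4%) were higher in 2C than in GV, against 6.39% elsewhere, and 41 of them were on chromosomes 14 and 25. In the other direction 169 windows (14.6%) were higher in GV, against 18.1%. The window chr18:1450001-1500000 was at 0 in GV and at 70.8% and 92.8% in 2C, and at 97.2% in both 8C libraries, and had no peak in MO. Between 8C and MO, 155 windows (13.4%) were higher in 8C, against 8.99%, and 98 (8.45%) were higher in MO, against 11.6%. The window chr27:1450001-1500000 had no peak in 8C and 97.6% and 89.2% in MO.

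Between MO and BL, 184 windows (15.9%) were higher in BL for H3K27me3, against 16.3%, and 21 (1.81%) were higher in MO, against 2.66%, so the first 2 Mb was near the background. With shortened lists 35 were higher in BL and 58 in MO, again with no share of the other windows at hand. Between ICM and TE, 115 windows (9.91%) were higher in TE, near the 9.27% elsewhere, and 25 (2.16%) were higher in ICM, against 5.65%. With shortened lists these were 30 and 22, also with no such share at hand.

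Windows were also compared between 8C and 8A. For H3K27me3, 64 windows (5.52%) were higher in 8A than in 8C, against 4.41%, and 25 (2.16%) were higher in 8C, against 2.67%. For H3K9me3, 70 windows (6.03%) were higher in 8A, against 4.59%, and 26 (2.24%) were higher in 8C, against 2.52%. Chromosomes 14 and 25 held 27 of the 64 and 24 of the 70, but 3 and 0 of the windows higher in 8C. The window chr25:1250001-1300000 had 29.6% and 32.4% H3K27me3 in 8C against 79.2% and 77.2% in 8A. For H3K9me3, chr25:850001-900000 had no peak in 8C and 44.8% and 55.6% in 8A.

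**Figure D5:**
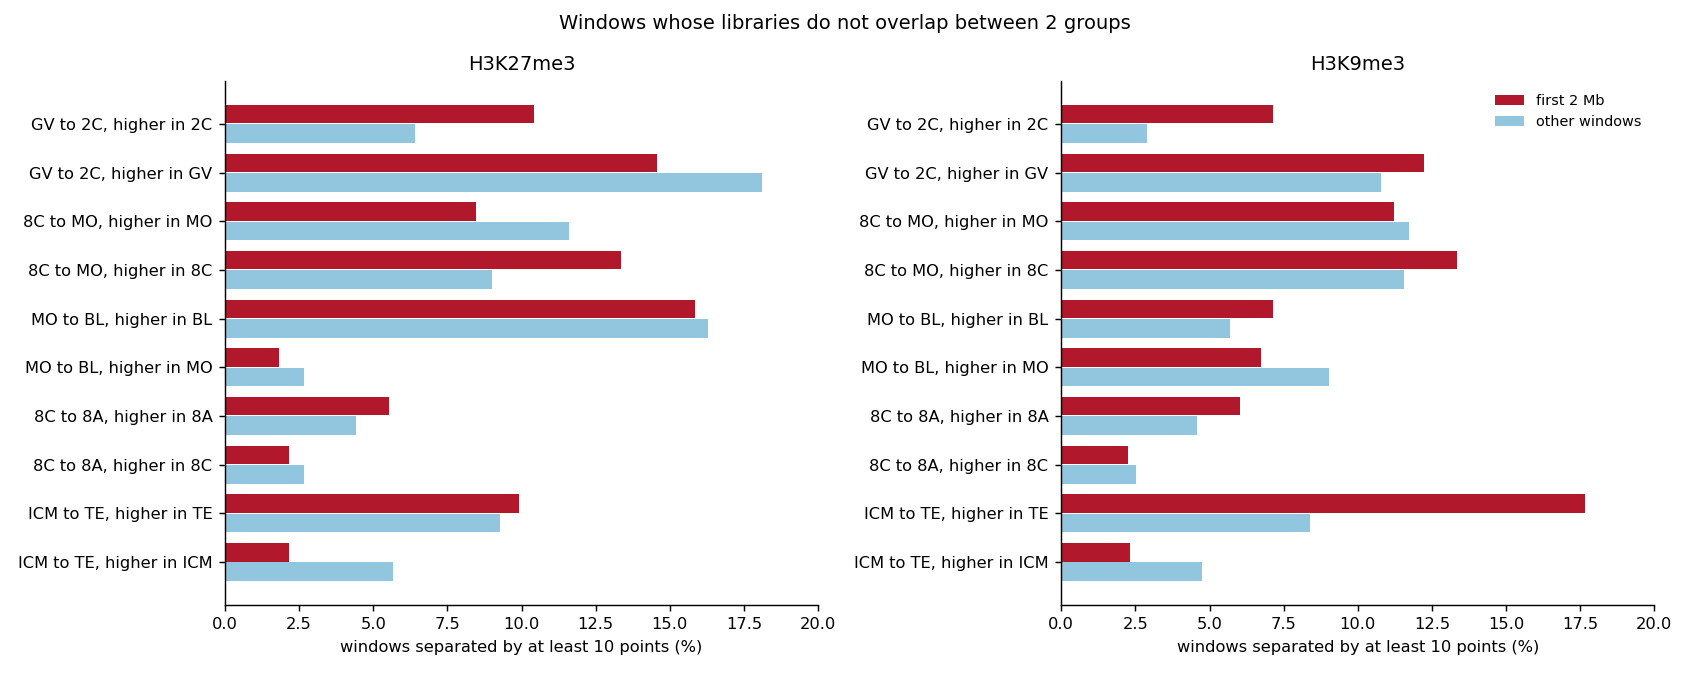
Percentage of windows (horizontal axis) whose libraries did not overlap between 2 groups and whose means differed by at least 10 percentage points, in the first 2 Mb (dark bars) and in the other autosomal windows (light bars), for H3K27me3 and H3K9me3. The longest H3K9me3 bar of the first 2 Mb is TE over ICM, at 17.7% against 8.4%.

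Some windows kept a repressive mark throughout. In the first 2 Mb, 14 windows (1.21%) had at least 50% H3K27me3 coverage in all 18 libraries, 8A included, against 0.208% of the other windows. For H3K9me3 there were 4 (0.345%), against 0.07%. No window of the first 2 Mb reached this for H3K4me3, H3K27ac or ATAC, for which the other windows had 1, 0 and 1. The 14 H3K27me3 windows lay on chromosomes 1, 2, 4, 12, 14, 16, 27 and 29, and 13 of them within the outermost 0.5 Mb.

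The longest such run was chr16:200001-400000, and its 2 middle windows, chr16:250001-300000 and chr16:300001-350000, were 100% covered by H3K27me3 in all 18 libraries. In each library 1 H3K27me3 peak of 123 to 161 kb spanned both. H3K9me3 had no peak there in GV, 6 peaks in each 2C library, and a single peak over both windows in 4C, 8C, 8A, BL and TE. Its coverage of chr16:300001-350000 was 86.6% in 2C and at least 96.8% in every later group mean. The ARS-UCD2.0 table starts chromosome 16 with the olfactory receptor genes OR5L1C, OR5W1 and OR5W33.

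The 4 windows with H3K9me3 throughout were chr1:300001-350000, chr1:450001-500000, chr19:300001-350000 and chr27:950001-1000000. The chromosome 19 window had the highest mean of the first 2 Mb (90.7%, lowest library 75.6%), although the first 2 Mb of chromosome 19 as a whole held 5.85%. For H3K4me3 the highest windows were on chromosome 25, led by chr25:1500001-1550000. Its mean over control groups was 48.9%, with a range of 37.8% to 63.2% over all 18 libraries, 8A included. The same window led for H3K27ac (38.3%) and was second for ATAC (49.1%, after 49.3% at chr14:1000001-1050000). The window chr25:250001-300000 had H3K27ac coverage of 27.7% in GV, 0.30% in 4C, 9.30% in 8C, 56.8% in MO and 64.3% in ICM.

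Peaks of the repressive marks in the first 2 Mb had higher scores. The score is the authors' own value per peak, and the sources at hand do not define it, so it was used within each list only. The median score per kb was higher in the first 2 Mb in 18 of 18 H3K27me3 lists and 18 of 18 H3K9me3 lists, with median ratios of 1.07 and 1.13. It was higher in 12 of 18 H3K4me3 lists, 5 of 18 H3K27ac lists and 0 of 9 ATAC lists. Of the 1% of peaks with the highest score per kb, the first 2 Mb, which is 2.33% of the windows, held a median of 16.1% for H3K9me3, 14.5% for H3K27me3, 6.99% for H3K4me3, 4.27% for H3K27ac and 2.29% for ATAC. Of these peaks, 71.5% of the H3K9me3 ones and 70.8% of the H3K27me3 ones lay in the outermost 0.5 Mb.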

How the data were processed

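CUT&Tag and ATAC-seq peak lists from 81 libraries were used (72 for 4 marks, 9 for ATAC). The authors deposited 1 list per library, called on each library separately, with chromosome, start, end, a name and a score per peak. The build was ARS-UCD1.2 and the tools named were SICER, SAMtools 1.9, Picard 2.26.10, BWA 0.7.9a, cutadapt 1.8.3 and Trim Galore 0.4.0, per the submitters' processing notes. For the peak cutoff, any control library, duplicates and reads with several matches, the treatment was not given in the sources used. The lists give no counts, so depth is unknown.

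Peak ends were read as the last covered base. Coverage was computed in complete 50 kb windows up to the last peak end of each autosome with pandas 2.3.3 and NumPy 2.4.6 under Python 3.11.15. Libraries were grouped by their titles. Ratios were tested per library by exact sign-flip permutation, and between groups by label permutation (100000 resamples, or all arrangements for ATAC), all two-sided, with p-values adjusted after Benjamini and Hochberg across 5 assays per family and a threshold of 0.05. The 8A group entered no test. The tests were checked on simulated data.

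Windows and chromosomes are named by rule: per assay the 3 highest and 3 lowest chromosomes and the 3 highest windows, up to 2 windows per direction and comparison, and the longest run at 50% or more in all libraries. Chromosomes 11 and 20, chromosomes 2 and 15 in the outermost stretch, and single further windows were named after their values were seen. The members and lists were chosen with earlier results of these data known. Alternatives were other extents (1 and 4 Mb), lists shortened by score to 1 covered length, joined peaks (under 3 kb apart), windows without a peak left out, the median over chromosomes (0.01 points added to both parts), the last 2 Mb left out, single libraries left out, and a stricter limit of 20 points for windows. Leaving out chromosomes 14 and 25, or the outermost 0.25 Mb, was chosen after seeing the data. Gene order came from the ARS-UCD2.0 table and no coordinates were taken from it. No sequences are printed, since no genome of the build was used.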

Additional observations from a re-analysis of the deposited data

Results flagged for a closer look

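The coverage ratio of the first 2 Mb to the other windows differed between the 8 control groups for 4 marks by permutation of group labels over 16 libraries. The adjusted p was 0.00010 for H3K27me3, 0.00466 for H3K9me3, 0.00050 for H3K4me3 and 0.00348 for H3K27ac.

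In 2 groups both libraries lay on the other side of 0 from the mean of their mark. H3K27ac in 2C had a mean log2 ratio of 0.032, while the mark as a whole was at -0.14. H3K27me3 in ICM had a mean of -0.123, while the mark as a whole was at 0.37. These single-group differences were not tested. Groups of 2 or 3 libraries are too small to single out a library.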

How the results depend on the processing

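Of 432 recomputed values, 407 kept their direction and their side of the threshold, or a count within 1.5 times. Most of the 432 came from leaving out 1 library. The window counts held less well: of 2 alternatives each, both were kept only for H3K9me3 between ICM and TE. Neither was kept for H3K27me3 between MO and BL or ICM and TE, or for H3K9me3 between GV and 2C or 8C and 8A. With the median over chromosomes the log2 ratio of the first 2 Mb to the other windows was -0.38 for H3K4me3, -0.19 for H3K27me3 and 0.15 for H3K9me3 (adjusted p = 0.0614), and the H3K4me3 group difference had p = 0.0723 (permutation test). Without chromosomes 14 and 25 the H3K4me3 ratio was -0.30 and the ATAC group difference had p = 0.00357 (exact permutation test). Between 0 to 0.5 Mb and 1.5 to 2 Mb, shortened lists gave 0.042 for H3K4me3 and 0.10 for H3K27ac, neither past the threshold. Leaving out single libraries changed no call of these tests, and the H3K27ac difference over the same distance ran from -0.073 to 0.019 in this way, above 0 without either BL library or either ICM library.

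Counts of windows that differed fell with a limit of 20 points, for H3K27me3 to 178 (GV and 2C), 163 (8C and MO), 133 (MO and BL), 25 (8C and 8A) and 72 (ICM and TE), and for H3K9me3 to 119, 172, 67 and 35 for the comparisons before ICM and TE. Shortened lists gave 93 (MO and BL) and 52 (ICM and TE) for H3K27me3, and 122 (GV and 2C) and 50 (8C and 8A) for H3K9me3. No share of the other windows is given for these counts, so they show only how the counts moved with the setting.

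With permutation within replicate numbers (replicate block) the group differences had permutation p = 0.00551 for H3K9me3, 0.00012 for H3K27me3, 0.00038 for H3K4me3, 0.00691 for H3K27ac and 0.388 for ATAC, and no call changed. Deviations of same-numbered libraries had a mean correlation of 0.012 for H3K9me3, -0.0032 for H3K27me3, 0.0181 for H3K4me3, -0.00221 for H3K27ac and 0.0767 for ATAC. For ATAC 7 of 9 pairs were over 0.1 and the lowest was at -0.534, so in no assay did every pair reach 0.1, and the numbers were not shown to pair libraries. Depth is unknown, so an absent peak is a missing call and not absence of a mark.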
